A study of Caenorhabditis elegans with 2 samples.

Results

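The 32 genes described here encode the proteins of the small (40S) subunit of the cytosolic ribosome in Caenorhabditis elegans. They were chosen by name from the Ensembl annotation of the WBcel235 assembly: all 31 protein-coding genes whose names start with rps-, plus ubl-1, out of 19973 protein-coding genes on the nuclear chromosomes. Binding of the protein F57A8.1 was mapped in whole young adult worms, 65 hours of age and of both sexes, by ChIP-seq. The worms were of strain OP757, which has the unc-119(tm4063) mutation and the stable transgene wgls757, in which F57A8.1 ends in TY1, EGFP and 3xFLAG tags and unc-119(+) is supplied, and they had been synchronised by starving first-stage larvae obtained by bleaching. An anti-GFP antibody was used on chromatin broken by sonication into pieces of 200 to 800 bp. Both samples, biological replicates 1 and 2, share this genotype and treatment, and no untagged or untreated worms are among them, so each value is a description of the tagged strain. The labels do not say what drives the transgene in which cells, and a whole worm mixes all tissues; peak lists hold no expression values with which to check its makeup.

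The small subunit binds messenger RNA and reads each codon against the anticodon of a tRNA. It is built from 1 ribosomal RNA and a set of proteins, and in yeast and human ribosomes these sit on the head, the platform or the body of the particle. Genes for ribosomal proteins are short and among the most strongly transcribed genes of growing cells, and in worms several of their introns hold snoRNA genes, whose RNAs guide the modification of other RNAs. The 5′ ends of many worm messenger RNAs are cut off and replaced by a spliced leader, so an annotated 5′ end can lie downstream of the point where transcription begins.

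The authors called 30000 peaks in each replicate and 30000 in the pooled reads, and 295 peaks passed their irreproducible discovery rate (IDR) threshold, whose settings are not given; these are the 295 pooled peaks of highest signal. All ranks below are by signal, the authors' enrichment value, within a list, rank 1 being the highest. A list's lowest signal was 14.4 in replicate 1, 16.2 in replicate 2 and 25.8 in the pooled list, and its median was 19.0, 21.9 and 34.9. The files give no read depth, so a gene without a peak was not detected at an unknown depth and is not shown to be unbound. Each peak is placed by its summit, the base where it is highest. It is given to the protein-coding gene whose annotated 5′ end is closest, up to 2000 bp away. Distances are from that 5′ end. Median peak width was 316 bp in replicate 1, 384 bp in replicate 2 and 356 bp in the pooled list. A peak with its summit in an exon can therefore also cover intron.

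Most small-subunit genes had a peak in the lists of 30000, and several of the peaks ranked high. A pooled-list peak was assigned to 27 of the 32 genes (84.4%), where 57.5% of all protein-coding genes had one. Replicate 1 had a peak at 28 of them, against 58.9% of all genes, and replicate 2 at 28, against 57.6%. In both replicates a peak was present at 26, or 81.2%, against 41.7% of all genes. Peaks that passed the authors' threshold were assigned to 6 members (18.8%), namely rps-1, rps-11, rps-12, rps-13, rps-16 and rps-17, against 0.981% of all genes. More than 1 pooled peak was assigned to 19 of the 27, against 42.4% of all genes with a peak. Among protein-coding genes no longer than the longest member (1163 bp), 52.3% of 4646 had a pooled peak and 1.23% a thresholded one. Each of these shares in small-subunit genes is above that of all genes, and the genes were not tested as a set. In whole worms a strong site in few cells and a weak one in many cannot be told apart.

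The strongest pooled peak of a member had a median signal of 59.4 over the 27 genes, with a range from 26.5 at rps-30 to 140 at rps-13. Over all 11488 genes with a pooled peak the median was 37.9. Among members the deposited −log10 q of the strongest pooled peak ran from 0.116 at rps-30 to 2.51 at rps-13. It was 0.849 at rps-22, the gene of median signal. Many of these 27 peaks thus had a low −log10 q, in a list that the authors' threshold does not limit. By rank, 9 members were among the first 500 peaks of the pooled list, 17 among the first 3000 and 24 among the first 15000. The same counts were not made over all genes, so medians and quartiles of rank give the comparison. The members' median rank was 1658, with quartiles of 343 and 5633. Over all genes with a pooled peak the median rank was 11475.5, with quartiles of 5111 and 19535. The threshold passed through the middle of a run of similar values: rps-17 (86.0) and rps-11 (86.0) were just inside it, and rps-28 (84.9) and rps-14 (80.7) just outside.

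**Figure D1:**
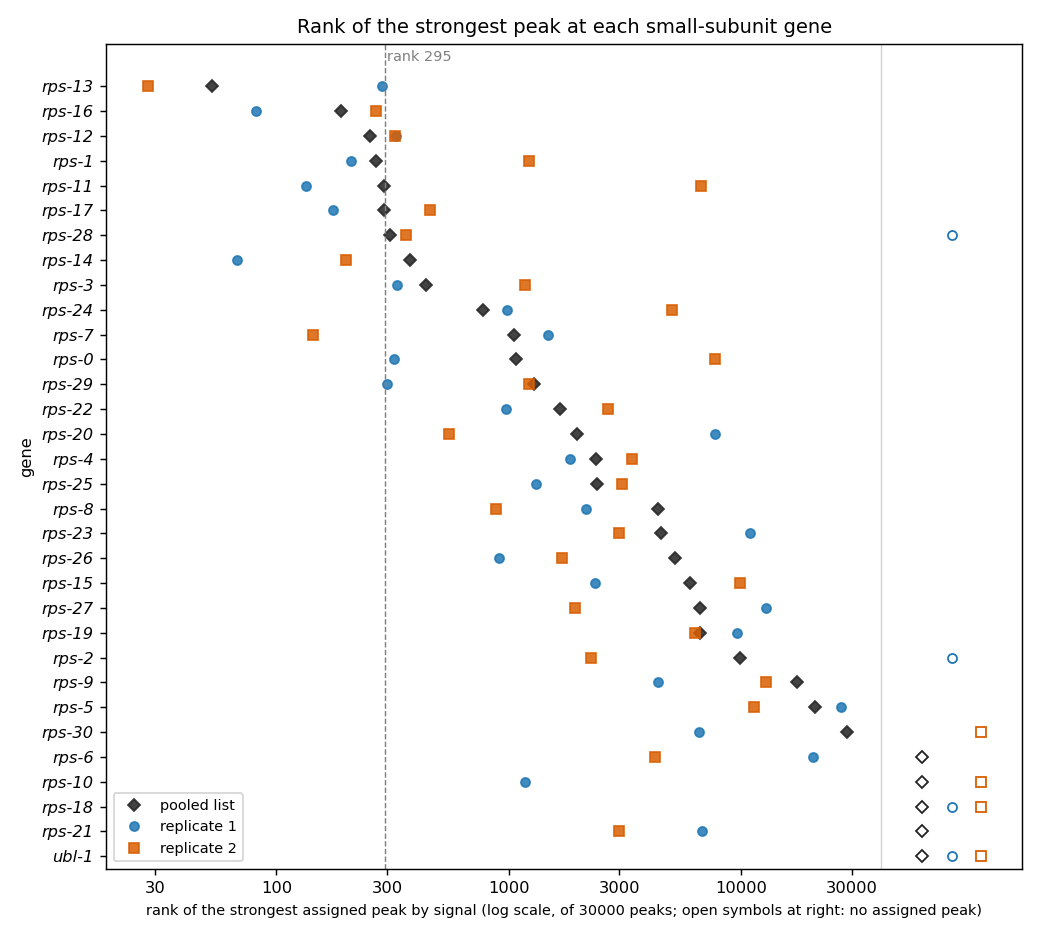
Rank of the strongest peak assigned to each of the 32 small-subunit genes (y axis) in the pooled list and in each replicate (x axis, log scale, low ranks are strong peaks). The dashed line is rank 295, the number of thresholded peaks. Open symbols at the right mark lists with no assigned peak, as for ubl-1 and rps-18 in all 3 lists. The replicates lie far apart for several genes, such as rps-11 at rank 134 in replicate 1 and 6748 in replicate 2.

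Of the 14 proteins of the head, which cradles the anticodon ends of the tRNAs, 11 had genes with a pooled peak and 3 a thresholded one, and the median signal was 62.5. At rps-16, whose protein reaches toward the tRNA in the P site in yeast and human ribosomes, the signal was 97.2 in the pooled list (rank 189), 58.5 in replicate 1 (rank 82) and 56.2 in replicate 2 (rank 268). That gene was also the single member with a second thresholded summit, 201 bp from the 5′ end with pooled signal 93.7, and both lie in exon 2. Replicate 2 had 1 summit, 3 bp from the second, where the pooled list had these 2, and replicate 1 had a separate one for each. At rps-12, a head protein found in eukaryotes, the signal was 88.8 pooled, 42.5 in replicate 1 and 53.1 in replicate 2, with nearly equal ranks of 326 and 324. At rps-17, another head protein, it was 86.0 pooled, 48.9 in replicate 1 and 50.1 in replicate 2. These 3 genes ranked within the first 500 peaks of each list.

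Other head genes were more moderate or uneven. At rps-3, whose protein lines the entry to the mRNA channel, signal was 77.7 pooled, 42.3 in replicate 1 and 40.8 in replicate 2, and ranks were 439, 330 and 1181. At rps-28, a small protein near the mRNA exit, the pooled signal was 84.9 and replicate 2 gave 52.1 at rank 362, but replicate 1 had no summit within 18747 bp of the pooled summit. At rps-28, then, only 1 of the replicate lists had a peak. For rps-29 the pooled signal of 62.5 went with 43.2 in replicate 1 at the same base and with a strongest replicate 2 peak of 40.5 elsewhere, 154 bp upstream. At rps-20 replicate 2 was high (47.8, rank 556) and replicate 1 low (23.05, rank 7770). The signals of rps-25 (55.1 pooled), rps-15 (45.0), rps-19 (43.9) and rps-5 (30.7) were lower. At rps-19 that summit lay past the gene's end and inside another gene, T05F1.2. The pooled peak with its summit inside rps-19 had a signal of 26.6. The replicate values at rps-5, 15.2 and 24.0, were near the median of their lists or below it.

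All 4 genes for proteins of the platform, the face that holds the mRNA exit, had a pooled peak. At rps-1 the signal was 87.8 pooled, 46.4 in replicate 1 and 40.5 in replicate 2, and a second pooled peak with signal 64.4 lay 306 bp upstream. For rps-14 it was 80.7 pooled, 61.1 in replicate 1 (rank 68, the highest of any member there) and 59.4 in replicate 2 (rank 199). So rps-14, outside the thresholded list, was among the first 295 peaks of both replicates, which of the 6 thresholded members held only for rps-13 and rps-16. The replicate summits at rps-14 were 341 bp apart, 1 of them past the 3′ end of the gene and the other in its last coding exon. At rps-0 replicate 1 had a signal of 42.7 (rank 320) and replicate 2 of 27.01 (rank 7760), and the pooled value was 64.9. The weakest of the 4 was rps-26, with 46.6 pooled, 35.4 in replicate 1 and 37.9 in replicate 2. Its pooled and replicate 2 summits lay 1533 and 1550 bp downstream, well past the gene's end and inside another gene, gpr-158. The pooled peak with its summit inside rps-26 had a signal of 40.9.

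The body of the subunit holds the other 14 proteins, and 12 of their genes had a pooled peak, with a median signal of 51.9. The highest of all members was rps-13, with 140 pooled (rank 53), 43.6 in replicate 1 (rank 284) and 102 in replicate 2 (rank 28). It was high in every list and highest among the members in the pooled list and in replicate 2. At rps-11 the signal was 86.0 pooled, 52.6 in replicate 1 (rank 134) and 28.0 in replicate 2 (rank 6748), the largest ratio of ranks between replicates of any member. At rps-24 the pooled signal was 68.9, and the strongest replicate peaks, 34.9 (rank 982) and 30.1 (rank 5036), were different peaks 815 bp apart. Each replicate had a peak at both places, with 33.0 in the exon in replicate 1 and 20.9 upstream in replicate 2. The pooled list also had the upstream peak, with signal 60.8. For rps-7 replicate 2 was the higher, with 65.2 pooled, 32.5 in replicate 1 (rank 1471) and 63.7 in replicate 2 (rank 144). Next came rps-22 (59.4, with 35.0 and 34.6) and rps-4 (55.3, with 31.2 and 33.0). In both of these the replicate summits were within 100 bp of each other. Peaks at rps-8 (48.4), rps-23 (48.1), which serves the decoding centre, rps-27 (43.9), rps-2 (39.7), rps-9 (33.0) and rps-30 (26.5) were weaker, those of rps-9 and rps-30 lying below the list's median of 34.9. At rps-2 replicate 2 had a signal of 35.8 and replicate 1 no assigned peak. At rps-30 replicate 1 had 24.0, and replicate 2 had a summit of 58.5 (rank 218) inside the gene, 586 bp from its 5′ end, that was closer to a neighbour's.

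No pooled peak was assigned to 5 genes. At ubl-1, which encodes a ubiquitin-like protein joined to the small-subunit protein S27a, no list had a summit within 2000 bp, and the nearest was 2260 bp upstream in the pooled list, 4275 bp in replicate 1 and 2210 bp in replicate 2. For rps-18 the nearest pooled summit was 27484 bp away, and the replicates' nearest, 975 and 1469 bp upstream, were assigned to other genes. rps-10 had a replicate 1 peak in its second exon with signal 33.8 (rank 1175) and 1 pooled summit inside its span that was nearer to another gene's 5′ end. At rps-6, whose protein is the well-known substrate of S6 kinase, replicate 1 (signal 17.1) and replicate 2 (signal 31.4) had summits 1 bp apart in the 3′ untranslated region, while the nearest pooled summit was 3893 bp away. At rps-21 the replicates had signals of 23.8 and 33.9 at summits 315 bp apart. So rps-6, rps-10 and rps-21 had a peak in at least 1 replicate list, while rps-18 and ubl-1 had none.

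**Figure D2:**
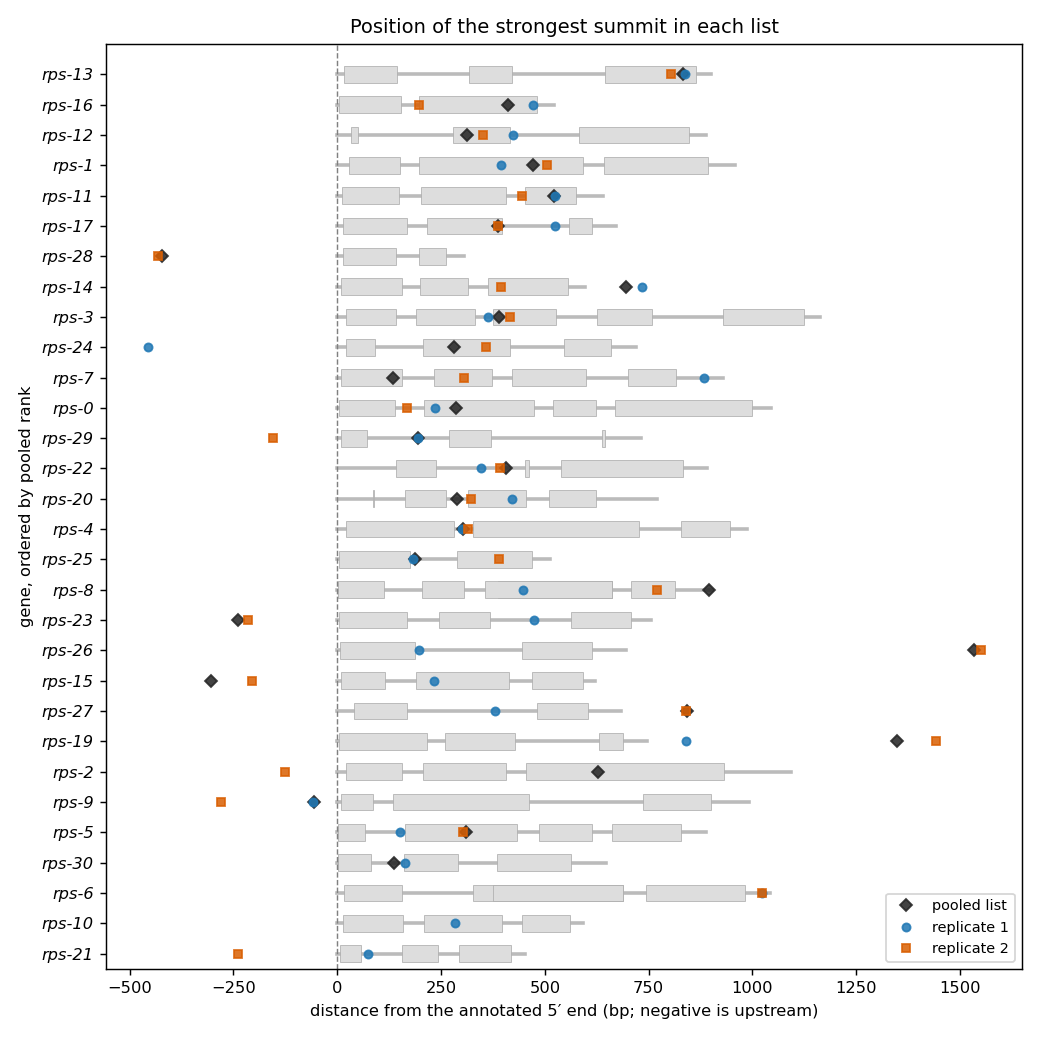
Position of the strongest summit relative to the annotated 5′ end (x axis, bp) for the 30 small-subunit genes with a peak in any list, ordered by pooled rank. Boxes are coding exons and the grey line is the gene's span; symbols are the pooled list and each replicate. Most summits lie over the gene body, and the upstream ones include rps-28, rps-23, rps-15 and rps-9 in the pooled list.

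Summits at the members lay over the genes more than before them. The strongest pooled summit was downstream of the 5′ end at 23 of 27 genes (85.2%), where 62.1% of all genes with a pooled peak had it downstream. It was in a coding exon of the gene itself at 12 of 27 (44.4%), against 33.4% of all genes, and in untranslated exon sequence at 2. An intron held it at 5 (18.5%), close to the 19.4% of all genes. It was upstream at 4 (14.8%, against 37.9%) and past the 3′ end at 4 (14.8%, against 5.58%). Among genes no longer than the longest member, 20.3% had it past the 3′ end, 36.4% upstream and 31.8% in a coding exon. The median distance was 313 bp downstream, with quartiles of 191 and 575 bp. Among the 19 genes with the summit inside the span, it stood at a median of 37.4% of the gene's length from the 5′ end, from 14.4% at rps-7 to 99.2% at rps-8. Replicate 1 alone gave 10 summits in coding exons and 11 in introns, and replicate 2 alone 13 and 3, so the split between exon and intron moved between replicates.

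The 6 members with a thresholded peak all had its summit in a coding exon. Of all 196 genes with a thresholded peak this held for 21, or 10.7%, the 6 members included, while 111 of the 196 had it upstream. The summits were in exon 3 of 3 at rps-13 and rps-11, exon 2 of 2 at rps-16, and exon 2 of 3 at rps-12, rps-1 and rps-17. In replicate 1 the strongest summit fell in an intron for rps-12 and rps-17, and in replicate 2 for rps-11. Among genes no longer than the longest member it held for 10 of 57 (17.5%). Coding sequence made up a median of 61.4% of a member's span, against 50.3% over all genes and 65.6% over genes no longer than the longest member. Per length, their coding sequence held 1.29 pooled summits per kb (20 summits in 15.5 kb) and their introns 2.09 (14 in 6.68 kb), whichever gene a summit was assigned to. Over all protein-coding genes the densities were 0.461 per kb of coding sequence and 0.251 per kb of intron. Within the small-subunit genes, then, summits were no denser in coding sequence than in introns, and both were denser than in the average gene.

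Sequences around the strongest pooled summit show what kind of DNA the peaks cover. The first 5 lines are 5 of the 6 thresholded members, shown for their summits in coding exons, and the window at rps-17 is not printed; rps-28 follows as the strongest upstream peak and rps-29 as the peak inside a snoRNA gene. Each runs 5′ to 3′ on the gene's strand in the ce11 (WBcel235) build, taken from the RefSeq assembly, with the summit at base 51. Capitals mark coding bases of the gene before the stop codon.
rps-13 (chrIII:6374115-6374215, minus strand): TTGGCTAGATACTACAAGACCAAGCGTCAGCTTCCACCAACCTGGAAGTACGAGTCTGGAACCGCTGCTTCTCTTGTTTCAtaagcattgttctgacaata
rps-16 (chrV:15000080-15000180, minus strand): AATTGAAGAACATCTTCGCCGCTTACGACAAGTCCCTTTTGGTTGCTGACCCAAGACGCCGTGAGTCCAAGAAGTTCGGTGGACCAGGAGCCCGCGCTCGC
rps-12 (chrIII:5679561-5679661, plus strand): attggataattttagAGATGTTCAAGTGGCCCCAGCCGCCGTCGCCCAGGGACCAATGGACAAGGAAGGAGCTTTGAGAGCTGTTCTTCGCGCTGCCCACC
rps-1 (chrIII:4476340-4476440, plus strand): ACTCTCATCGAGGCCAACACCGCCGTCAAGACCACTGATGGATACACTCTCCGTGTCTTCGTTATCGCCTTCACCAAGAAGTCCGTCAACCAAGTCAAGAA
rps-11 (chrIV:11603113-11603213, plus strand): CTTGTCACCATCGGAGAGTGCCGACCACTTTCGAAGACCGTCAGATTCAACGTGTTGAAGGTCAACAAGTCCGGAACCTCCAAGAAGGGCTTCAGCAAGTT
rps-28 (chrIV:1659220-1659320, plus strand): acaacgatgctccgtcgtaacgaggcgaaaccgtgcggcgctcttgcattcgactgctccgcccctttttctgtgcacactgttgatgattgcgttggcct
rps-29 (chrIII:794444-794544, plus strand): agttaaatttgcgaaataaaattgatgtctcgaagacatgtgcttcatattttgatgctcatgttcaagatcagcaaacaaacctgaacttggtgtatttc

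At rps-16, rps-1 and rps-11 the whole window is coding. The rps-13 window runs over the stop codon into the 3′ untranslated region, and the rps-12 window opens with the last intron bases before an exon. Windows in coding exons were rich in G and C, with a median of 51.5% over the 12 genes and 60.4% at rps-0, while the 5 intron windows had a median of 35.6%. For comparison, the 3840 genes whose strongest summit was in their own coding exon had a median of 43.6% in the window. Coding sequence of the members as a whole is richer in G and C than that of all genes, with a median of 54.2% (range 49.7 to 57.8%) against 42.5%. Large-subunit ribosomal protein genes share this, with a median of 53.1% (range 46.3 to 59.5%). The part of base composition in the peaks was not tested. The 6-base sequence ACGCAG, on either strand, was in none of the 27 member windows, in 3.10% of all pooled windows and in 13.9% of thresholded ones. AGAGCG was in 1 member window (rps-28) and GAACCC in 1 (rps-0), against 2.81% and 3.02% of pooled windows. ACGCAG ends in the letters that AGAGCG starts with, so the pair can overlap. In thresholded windows AGAGCG was in 16.9% and GAACCC in 14.2%. With 27 member windows such counts are too few to compare, and a missing match says only that the letters are not in the window.

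Genes for snoRNAs lie inside 6 of the members and account for 9 of the 346 annotated snoRNA genes. How many of all protein-coding genes hold a snoRNA gene was not counted, so hosting does not set the members apart. All 9 are on the strand of their host and inside its introns: 2 each in ubl-1, rps-12 and rps-29, and 1 each in rps-4, rps-13 and rps-23. The strongest pooled summit was within 250 bp of a snoRNA gene at 3 of the 27 members (11.1%), rps-12, rps-13 and rps-29, against 0.696% of all genes with a pooled peak. The share was similar for genes of the large subunit, at 4 of 41 (9.76%), and was 1 of 14 for those of the mitochondrial small subunit. Distances differed among the 3 members. At rps-29 the summit, at 794494 on chromosome III, was inside B0412.6 (794399 to 794526), and the replicate 1 summit was at the same base with signal 43.2. Replicate 2 had a peak in the snoRNA gene with signal 17.1 (rank 26844), near the lowest value of its list. At rps-12 the summit lay in the exon between F54E7.10 and F54E7.11, 102 bp from the first and 134 bp from the second. At rps-13 it was 250 bp from C16A3.11, at the limit of the rule, and in the last exon, so the highest peak of any member was not over the snoRNA gene.

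Hosting a snoRNA gene did not go with a peak in every case. The 2 snoRNA genes of ubl-1, H06I04.8 and H06I04.9, had no pooled summit nearer than 2436 bp. Inside F28D1.13 of rps-23 all 3 lists had a summit, with pooled signal 46.7 (rank 5164), 21.1 in replicate 1 and 21.2 in replicate 2. The summit nearest Y43B11AR.7 of rps-4 was 181 bp away with pooled signal 71.5 (rank 626), and it was assigned to another gene. Without the 6 host genes, 22 of 26 members had a pooled peak and 4 a thresholded one (rps-1, rps-11, rps-16 and rps-17), so the thresholded share was 4 of 26 against 6 of 32.

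The 2 replicates placed the strongest summit of a member within 100 bp of each other at 9 of 26 genes (34.6%), against 23.6% of the 8330 genes with a peak in both replicates. The median distance between them was 214.5 bp, against 515 bp over all those genes. Among genes no longer than the longest member 29.3% were within 100 bp, and the median was 302.5 bp. For large-subunit genes these values were 32.4% and 319 bp. The closest pairs among the members were rps-6 (1 bp), rps-4 (15 bp), rps-13 (32 bp) and rps-22 (45 bp), and the farthest was rps-26 (1353 bp). Both replicates had some summit within 100 bp of the strongest pooled summit at 13 of the 27 genes, among them rps-13, rps-1, rps-11 and rps-17. The same count was not made over all genes, so it does not set the members apart. At rps-12 and rps-16, the other two thresholded members, 1 replicate's nearest summit was 110 and 213 bp away.

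Signals in the replicates were loosely related across members. Over the 26 genes Pearson's r was 0.437 and Spearman's rho 0.48, against 0.514 and 0.248 over all 8330 genes. These are correlations across genes that share 2 libraries, and are given as a description. A rank more than 10-fold apart between replicates was found at 5 of the 26. Of these, rps-11 and rps-0 ranked higher in replicate 1, and rps-13, rps-7 and rps-20 in replicate 2. At rps-7 the ranks belong to summits 577 bp apart, and at the others to summits within 100 bp. In all, 15 of the 26 ranked higher in replicate 1. Each replicate therefore ranked some members well above the other. How often this holds over all genes was not counted.

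**Figure D3:**
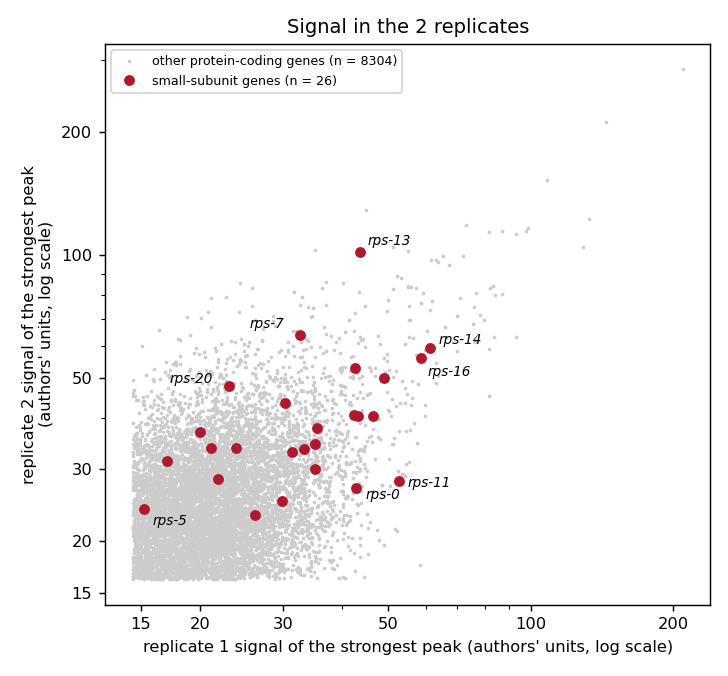
Signal of the strongest peak in replicate 1 (x axis) and replicate 2 (y axis), both on log scales in the authors' units, for the 26 small-subunit genes with a peak in both replicates (red) and 8304 other protein-coding genes (grey). rps-13 is highest in replicate 2 at 102 and rps-14 in replicate 1 at 61.1; rps-11 and rps-0 are low in replicate 2.

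The 50 genes of the large subunit (names starting rpl- or rla-) had pooled peaks about as often, at 41 (82.0%). A thresholded peak was assigned to 5 (10%), against 18.8% of small-subunit genes and 0.981% of all genes, and the median strongest signal was 53.9 against 59.4 for the small subunit. Where the thresholded summits lay differed between the lists: of the 5 large-subunit genes 4 had it upstream and 0 in a coding exon, and of the 6 small-subunit genes 0 had it upstream and 6 in a coding exon. The 3 with the highest signal were rpl-15 (205), rpl-35 (165) and rpl-3 (151), each upstream. Over all large-subunit genes with a pooled peak, 31.7% had the strongest summit in a coding exon, and their spans held 1.17 summits per kb against 1.44 for the small subunit. With 11 thresholded genes in the lists together this contrast is small in number and was not tested.

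Genes for the small subunit of the mitochondrial ribosome, whose names start with mrps-, had a lower median pooled signal than either cytosolic list. A pooled peak was assigned to 14 of 29 (48.3%), against 57.5% of all genes, and a thresholded one to 0. The replicate lists did not all go that way: replicate 1 had a peak at 18 of 29 (62.1%, against 58.9%), replicate 2 at 16 (55.2%, against 57.6%) and both at 14 (48.3%, against 41.7%). Their median strongest signal was 35.5, the highest being 71.0 at mrps-18C, and their spans held 0.210 summits per kb, against 0.337 over all protein-coding genes. At rack-1, which encodes a protein that sits on the head of the cytosolic small subunit, the pooled signal was 48.0, in a coding exon 495 bp from the 5′ end, with 14.9 in replicate 1 and 37.4 in replicate 2. How strongly the genes of these lists were transcribed in the same worms is not in the data used here, and its part in the difference was not tested.

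**Figure D4:**
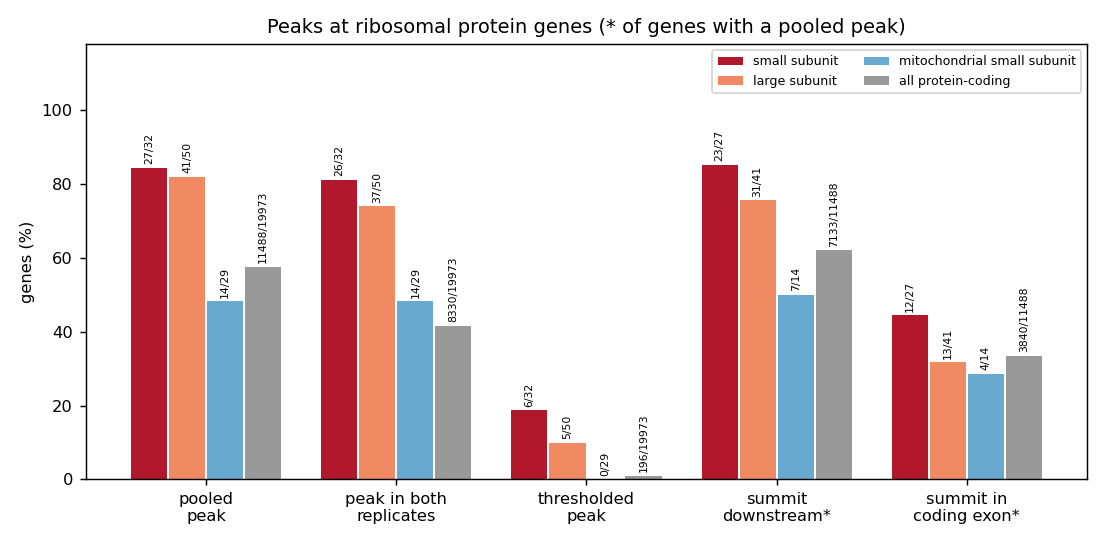
Share of genes (y axis, %) with each kind of peak or summit position, for small-subunit, large-subunit and mitochondrial small-subunit ribosomal protein genes and for all protein-coding genes; counts stand above the bars. Starred classes are shares of the genes with a pooled peak. Both cytosolic lists exceed all genes in pooled, replicated and thresholded peaks, at 84.4% and 82.0% against 57.5% for pooled peaks.

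Some strong peaks near members belong by distance to a neighbour. A thresholded summit 370 bp upstream of rps-26, with pooled signal 116 (55.3 in replicate 1 and 69.5 in replicate 2), was 87 bp from the 5′ end of tmem-107 and within 250 bp of the snoRNA gene F39B2.14. Another, 271 bp upstream of rps-19 with signal 102 (49.2 and 52.0 in the replicates), was 174 bp from the 5′ end of hsr-9. One more, 1027 bp upstream of rps-16 with signal 90.6, was nearest to fib-1, which encodes the nucleolar protein fibrillarin. Each of these was picked from the thresholded list, whose lowest signal was 85.7, so a high signal was given by the choice. Counting every summit within 2000 bp, whichever gene is nearest, 8 members had a thresholded peak, rps-19 and rps-26 joining the 6.

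By chromosome the members are on III (10 genes), IV (10), I (8), V (3) and II (1), with none on X. Thresholded members were on III (rps-1, rps-12, rps-13), IV (rps-11), V (rps-16) and I (rps-17). Pooled peaks were present at 8 of 10 genes on III, 9 of 10 on IV and 6 of 8 on I. These shares differ by 1 or 2 genes from one another.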

How the data were processed

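ChIP-seq peak lists of 2 biological replicates were used. Per the deposited file descriptions, the authors called peaks in ce11 on each replicate's alignment, and on both pooled, against a control; the thresholded list was derived from these. What the control was, and the aligner and peak caller with their versions: not given in the sources used here. Column 7 is the authors' signal value for each peak. The deposited −log10 q (0.116 at rps-30 to 2.51 at rps-13) was used only to describe peaks. Scaling and read depth are unknown.

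Genes came from Ensembl release 115 (WBcel235, the sequence of ce11), and windows from the RefSeq assembly. Each summit went to the protein-coding gene whose 5′ end was closest, at most 2000 bp away; the strongest assigned peak describes a gene. The classes by part of the subunit were set by hand. Assignment was tested on planted summits. Python 3.11.15, numpy 2.4.6, pandas 2.3.3 and matplotlib 3.10.9 were used. No test was made: there is 1 group, and genes are not replicates. Every member is accounted for. Described in full are thresholded members, the 10 highest by pooled signal, ubl-1 and members with a snoRNA gene at the summit. The members and lists were chosen with earlier results of these data known. Alternatives changed the distance, assignment, 5′ end, list and snoRNA limit.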

Additional observations from a re-analysis of the deposited data

How the results depend on the processing

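Of 56 alternative values, 51 stayed within 1.5-fold of the reported count (or, for the median signal, within its SD over members), and 5 moved further. In the upper 147 peaks of the thresholded list 1 member, rps-13, was left of 6. A snoRNA gene within 100 bp of the strongest pooled summit was found at 1 member in place of 3, and at 5 members when every summit within 2000 bp was counted whichever gene was nearest. Requiring both replicates within 100 bp of the strongest pooled summit gave 13 members in place of 26, and within 250 bp 21.

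Leaving out a replicate meant using the other's own list. Members with a peak then numbered 28 either way, with a summit downstream 21 to 26, in a coding exon 10 to 13, and with a snoRNA gene at the summit 2 to 3. Members among the 295 highest peaks numbered 4 to 6: without replicate 1 they were rps-7, rps-13, rps-14 and rps-16, 2 of them shared with the reported 6, and without replicate 2 they were rps-1, rps-11, rps-13, rps-14, rps-16 and rps-17, 5 of them shared. The median signal was 33.5 to 36.4, on the replicates' own scales, against 59.4. Leaving out the 6 hosts of snoRNA genes was chosen after seeing the data. No paired analysis was possible because there is 1 group. Depth is unknown and limits which members can be called without a peak.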

Other observations

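A summit in both replicates was seldom missing from the pooled list. Of 6561 replicate 1 summits with a replicate 2 summit within 100 bp, 130 (1.98%) had no pooled summit within 500 bp, and that at rps-6 was one of them.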
